A study of Mus musculus with 4 samples.

Results

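The Ms4a genes (membrane-spanning 4-domains subfamily A) encode small proteins that cross the cell membrane several times and sit beside other receptors at the cell surface. In mouse they lie in a single cluster on chromosome 19. The best known member, Ms4a1, encodes CD20 on B cells, and others serve in mast cells, T cells, granulocyte precursors, monocytes and macrophages. The 10 genes described here are family members known mainly outside B cells. They are a choice by name and not a full set of such genes, and 10 other Ms4a genes were measured. In order along the chromosome the chosen members are Ms4a8a, Ms4a7, Ms4a4a, Ms4a4c, Ms4a4b, Ms4a6c, Ms4a6b, Ms4a6d, Ms4a2 and Ms4a3. All 10 of 10 were measured, with 1 probe set each, among 22180 genes tested.

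Peritoneal macrophages of 2 inbred strains were profiled on Affymetrix Mouse Gene 2.0 ST arrays. The DBA group was 1 pool of female and 1 pool of male DBA/2J mice, and the 129 group was 1 pool of female and 1 pool of male 129S6/SvEv mice. All mice were wild type, 3 months old and fed chow, and each pool held cells of 3 mice according to the sample labels, while the methods text gives a larger number. Each mouse had received 1 ml of 4% thioglycollate, an irritant that draws leukocytes into the peritoneum, and the cells collected on day 4 were cultured overnight before 250 ng of RNA was labelled per array. Each strain thus had 2 pools that differ in sex. The p-values rest on the spread between the pools of a strain, in the gene itself and across all genes. Unless sex is in the fit, that spread includes any difference between the sexes. Pooling hides the spread among mice.

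Values are log2 array signals, so a difference of 1 is a doubling of signal, and levels of different genes cannot be set against each other. Median values over all genes were 7.66 and 7.67 in the DBA pools and 7.70 and 7.69 in the 129 pools. Pairs of arrays correlated at 0.985 to 0.993 across genes, and the sex-linked genes matched the label of every pool. The number of arrays limits the precision. A level of 7.17, the 95th percentile of the mean values of 1374 olfactory and vomeronasal receptor genes, served as a background reference. The macrophage genes Csf1r, the receptor for colony-stimulating factor 1, Adgre1, which encodes F4/80, and Lyz2, lysozyme, lay between 12.67 and 13.70 in every pool, well above that level.

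The DNA before the members' start sites was compared, since neighbouring Ms4a genes can be close copies. RefSeq windows on GRCm38.p6, from 250 bases before to 50 after each start, were matched for 9 of the 10 members, all but Ms4a6d. The reference strain is C57BL/6J, so the letters are those of neither strain measured here. Among 36 pairs of upstream 250-base stretches, Ms4a4c and Ms4a4b were identical at 74% of the 250 bases when aligned end to end and shared a run of 20 bases, and Ms4a6c and Ms4a6b matched at 59.6% and shared a run of 48 bases. The other 34 pairs matched at 48% to 56.4% and shared no run longer than 12 bases. This comparison of pairs was chosen after the array values had been seen. Ms4a4a is shown first because it had the largest difference between the strains, followed by both pairs with the longest shared run in capitals. All lie on the plus strand, Ms4a4a at chr19:11375238-11375487, Ms4a4c at chr19:11407411-11407660, Ms4a4b at chr19:11443308-11443557, Ms4a6c at chr19:11469118-11469367 and Ms4a6b at chr19:11518309-11518558.
Ms4a4a: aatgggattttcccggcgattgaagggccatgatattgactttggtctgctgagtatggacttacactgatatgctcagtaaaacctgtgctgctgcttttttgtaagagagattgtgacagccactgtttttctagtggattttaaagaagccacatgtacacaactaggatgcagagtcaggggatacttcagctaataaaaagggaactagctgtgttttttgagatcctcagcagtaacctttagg
Ms4a4c: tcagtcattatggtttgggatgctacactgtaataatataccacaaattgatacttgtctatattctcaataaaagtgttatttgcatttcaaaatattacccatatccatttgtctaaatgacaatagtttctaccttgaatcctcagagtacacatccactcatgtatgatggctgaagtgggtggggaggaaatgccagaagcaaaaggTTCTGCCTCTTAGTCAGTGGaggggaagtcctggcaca
Ms4a4b: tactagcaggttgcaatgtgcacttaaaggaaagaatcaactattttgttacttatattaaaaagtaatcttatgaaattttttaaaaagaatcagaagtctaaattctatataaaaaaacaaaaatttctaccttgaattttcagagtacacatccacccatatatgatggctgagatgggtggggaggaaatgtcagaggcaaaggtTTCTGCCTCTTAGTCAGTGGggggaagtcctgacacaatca
Ms4a6c: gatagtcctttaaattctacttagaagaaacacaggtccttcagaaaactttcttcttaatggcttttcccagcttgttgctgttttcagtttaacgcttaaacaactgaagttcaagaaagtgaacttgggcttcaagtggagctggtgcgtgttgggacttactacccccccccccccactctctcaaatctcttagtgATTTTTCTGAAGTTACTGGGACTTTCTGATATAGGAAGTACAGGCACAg
Ms4a6b: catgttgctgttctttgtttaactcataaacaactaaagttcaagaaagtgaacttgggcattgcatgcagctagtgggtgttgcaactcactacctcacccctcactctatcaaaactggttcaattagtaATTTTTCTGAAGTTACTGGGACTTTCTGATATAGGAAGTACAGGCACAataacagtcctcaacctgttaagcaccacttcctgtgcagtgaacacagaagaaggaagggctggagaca

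Motifs of 4 factors active in blood cells were searched on both strands of the 10 windows (Ms4a7 has 2 start sites). The GATA motif AGATAA, bound by factors that act in mast cells, occurred 3 times in the Ms4a2 window, without overlap, and in no other member, and 11.2% of 32851 windows of all genes hold it. The C/EBP motif TTGCNNAA occurred in the Ms4a3 window alone (10.8% of all windows). Neither the PU.1 motif GAGGAAGT (3.2% of all windows) nor the interferon-response element (3.44%) was found. A match describes letters and is not a measured binding site. The stretch before Ms4a2, on the minus strand at chr19:11623720-11623969, is shown with AGATAA or its reverse complement in capitals.
Ms4a2: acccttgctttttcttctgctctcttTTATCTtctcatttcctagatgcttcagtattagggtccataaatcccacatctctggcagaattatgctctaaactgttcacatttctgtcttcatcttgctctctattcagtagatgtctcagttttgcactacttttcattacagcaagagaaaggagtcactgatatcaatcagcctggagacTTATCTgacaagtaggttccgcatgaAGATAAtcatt

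No member passed the test between the strains, and 5 of the 10 had both DBA pools above both 129 pools: Ms4a4a, Ms4a4c, Ms4a6c, Ms4a6b and Ms4a6d. The test was limma's moderated fit with Benjamini-Hochberg adjustment over all 22180 genes at 0.05, by which 0.216% of all genes were called higher and 0.158% lower in DBA. At an unadjusted p under 0.05 the same 5 members were higher and none lower, against 6.44% of all genes higher and 5.08% lower. That count was 3 without the DBA female pool, 3 without the 129 male pool, 3 with all probe sets tested and 4 with sex as a block. It was also 4 with quantile normalization. Both DBA pools lay above both 129 pools in 23% of all genes and below them in 21.4%, against 5 and 0 of the 10 members. The members were chosen with earlier results of these data known. For the 10 other Ms4a genes measured the counts were 1 and 4. For all 20 Ms4a genes they were 6 and 4, with a median difference of -0.04. The median difference over the members was 0.14, and over all genes 0.00. An exact two-sided permutation test of 2 pools against 2 cannot go below p = 0.333.

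**Figure D1:**
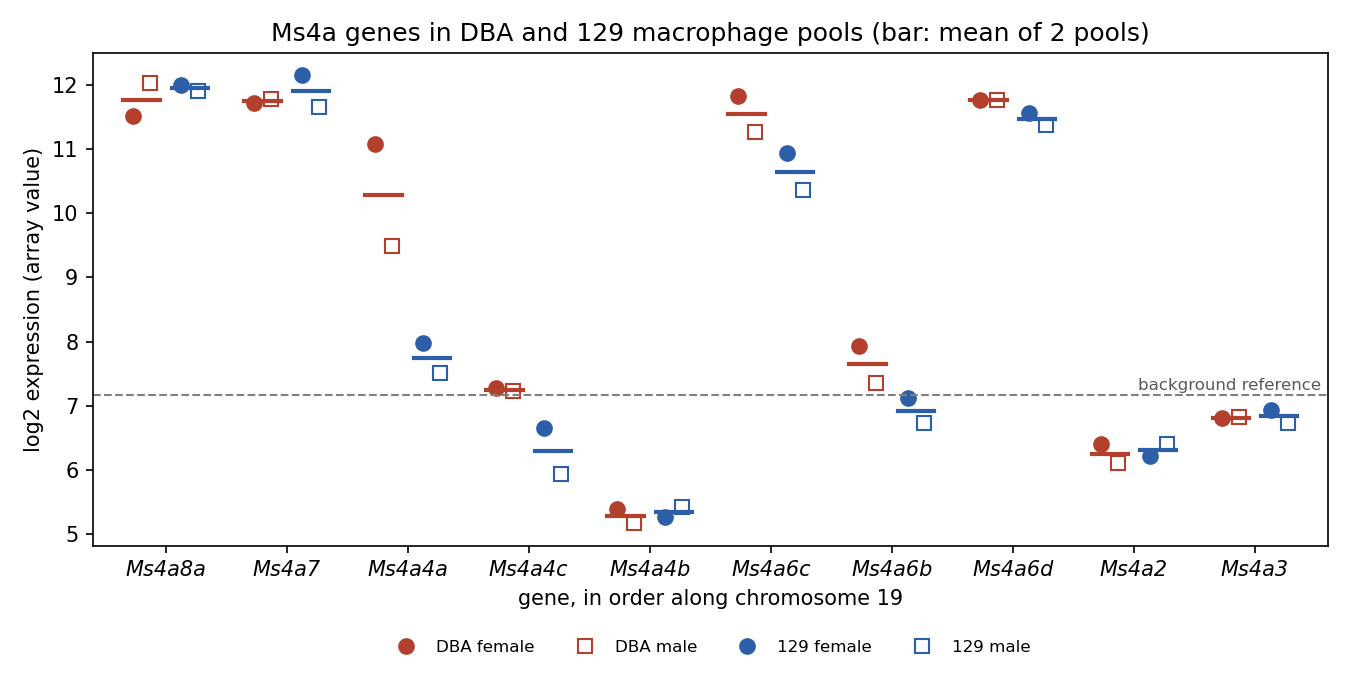
Log2 array value (y axis) of the 10 Ms4a genes in order along chromosome 19 (x axis), with DBA pools left of 129 pools, filled circles for females, open squares for males, and a bar at the mean of each strain's 2 pools. The pools of both strains separate for Ms4a4a, Ms4a4c, Ms4a6c, Ms4a6b and Ms4a6d and overlap for the other 5, and Ms4a4b, Ms4a2 and Ms4a3 lie below the dashed background reference of 7.17 in all 4 pools.

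Ms4a4a, whose human counterpart marks alternatively activated macrophages and associates with the beta-glucan receptor dectin-1, had the largest difference of the family. It measured 11.07 in DBA females and 9.49 in DBA males, against 7.99 in 129 females and 7.52 in 129 males. Every pool was above the background reference, and the lower DBA pool exceeded the higher 129 pool. The strain means differed by 2.53 (SE 0.50, 95% interval 1.30 to 3.76), a 5.77-fold higher signal in DBA, with limma's adjusted p = 0.181. The size of this difference was exceeded by 18 of the 22180 genes, and 314 genes had a smaller p. With sex as a block the difference was the same and limma's adjusted p was 0.0593, still above the threshold. The DBA pools were themselves spread widely, with an SD of 1.12 against 0.33 in 129 (n = 2 pools each). Leaving out the DBA male pool gave a difference of 3.32 with limma's adjusted p = 0.00361, and leaving out the DBA female pool gave 1.74 with 0.0292, so that either omission carried the gene past the threshold. Such a fit assumes that the lone pool varies like the pools of the other strain. Leaving out the 129 female pool gave 2.77 (adjusted p = 0.293), and the 129 male pool 2.29 (0.645).

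Ms4a4c and Ms4a4b are neighbours with closely related upstream sequence, and only Ms4a4c had separated strains. Ms4a4c, a member expressed in several leukocyte types, measured 7.27 in DBA females and 7.23 in DBA males, against 6.66 and 5.94 in 129 females and males. Its DBA pools were just above the background reference and its 129 pools below it. The difference was 0.96 (SE 0.24, 95% interval 0.37 to 1.54, limma's adjusted p = 0.252), and it ranged between 0.59 without the 129 male pool and 1.32 without the 129 female pool. Ms4a4b, a T cell member that associates with the receptor GITR, measured 5.39 and 5.17 in DBA females and males, against 5.27 and 5.43 in 129 females and males. All 4 of these values were below the background reference and the strains overlapped, with a difference of -0.06 (95% interval -0.39 to 0.26, limma's adjusted p = 0.873).

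The Ms4a6 genes are known from monocytes and macrophages, and Ms4a6b also from T cells. Ms4a6c measured 11.83 in DBA females and 11.26 in DBA males, against 10.94 in 129 females and 10.36 in 129 males. Its difference was 0.89 (SE 0.26, 95% interval 0.25 to 1.54), a 1.86-fold higher signal, with limma's adjusted p = 0.316, and the size was nearly the same within females (0.89) and within males (0.90). Ms4a6b measured 7.94 and 7.36 in DBA females and males, against 7.13 and 6.73 in 129 females and males. Both 129 values were below the background reference, and the difference was 0.72 (SE 0.23, 95% interval 0.14 to 1.29, limma's adjusted p = 0.344). It was 0.43 without the DBA female pool. Ms4a6d, which in mouse macrophages associates with the complement receptor VSIG4, measured 11.76 and 11.77 in DBA females and males, against 11.56 and 11.37 in 129 females and males. The DBA pools were almost equal and stood only slightly above the 129 pools, by 0.30 on average (SE 0.12, 95% interval 0.01 to 0.59, limma's adjusted p = 0.420). Probe sequences were not examined, so how far close copies such as Ms4a6b and Ms4a6c share signal is unknown.

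The remaining pair of macrophage members, Ms4a7 and Ms4a8a, was well above background and overlapped between the strains. Ms4a7, a gene of differentiated macrophages, measured 11.71 in DBA females and 11.78 in DBA males, against 12.14 and 11.66 in 129 females and males. The 129 pools spanned the DBA pools, and the difference was -0.15 (SE 0.18, 95% interval -0.60 to 0.29, limma's adjusted p = 0.768). Ms4a8a, a gene of alternatively activated macrophages in mouse, measured 11.508 and 12.019 in DBA females and males, against 11.998 and 11.909 in 129 females and males. Here the DBA pools spanned the 129 pools, with a difference of -0.19 (95% interval -0.65 to 0.27, limma's adjusted p = 0.715). The intervals of both genes exclude a doubling in either direction.

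Ms4a2 encodes the beta chain of the high-affinity IgE receptor of mast cells and basophils, which amplifies the signal of the IgE-binding alpha chain Fcer1a and the signalling gamma chain Fcer1g. Ms4a2 measured 6.40 in DBA females and 6.11 in DBA males, against 6.23 and 6.40 in 129 females and males, all below the background reference. The difference was -0.06 (95% interval -0.42 to 0.30, limma's adjusted p = 0.900). Fcer1a was also below background, at 4.24 and 4.51 in DBA females and males, against 4.69 and 4.13 in 129 females and males. Fcer1g, which macrophages use for other receptors too, measured 13.38 and 13.33 in DBA females and males, against 13.26 and 13.30 in 129 females and males (difference 0.08, limma's adjusted p = 0.803). Of 14 measured genes of this receptor and its signalling none passed the test, and the median difference was 0.02.

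Among 15 mast cell and basophil markers, Mcpt4 alone passed, a connective tissue mast cell protease at 7.49 and 7.90 in DBA females and males, against 5.82 and 5.96 in 129 females and males (difference 1.80, SE 0.17, limma's adjusted p = 0.0245). Its 129 values lay below the background reference, and the call was lost without the 129 female (adjusted p = 0.128) or 129 male pool (0.162) and with all probe sets tested (0.239). The remaining 14 did not pass, though before adjustment 4 were lower (p under 0.05). Both DBA pools lay below both 129 pools in 5 of the 15, against 21.4% of all genes. Among them were Cd200r3, a receptor of mast cells and basophils, at -1.04, the tryptase Tpsab1 at -0.94 and Hdc, which makes histamine, at -0.72. Both DBA pools of Cd200r3 and Hdc and the DBA female pool of Tpsab1 lay below the background reference, so these sizes are uncertain. Cpa3, carboxypeptidase A of mast cells, measured 10.45 and 10.37 in DBA females and males, against 10.44 and 10.05 in 129 females and males. Summed on the linear scale the 15 markers gave 3157 and 3364 in DBA females and males, against 3790 and 2863 in 129 females and males, with overlap. Of the markers, 5 were below background in all pools.

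Ms4a3, which in mouse marks granulocyte-monocyte precursors, measured 6.81 in DBA females and 6.82 in DBA males, against 6.94 and 6.74 in 129 females and males. All values were below the background reference, and the 129 pools spanned both DBA pools, with a difference of -0.03 (95% interval -0.32 to 0.27, limma's adjusted p = 0.950). None of 10 precursor and early granule genes passed the test, none reached an unadjusted p under 0.05, and the list's median was -0.08. Myeloperoxidase (Mpo) and neutrophil elastase (Elane), the defining genes of that stage, differed by -0.06 and 0.04. Mpo was below the background reference in all pools and Elane just above it, at 7.24 to 7.40. Of the 10 genes, 4 lay below it in every pool. For Ms4a4b, the matching list of 13 T and NK cell markers likewise had no gene past the test, while 2 members of it had higher and 3 had lower values before adjustment (p under 0.05), and the median was -0.10. The chains of the T cell receptor's CD3 complex did not share a direction, with Cd3e at -0.22, Cd3d at -0.06 and Cd3g at 0.59. Cd3g was below the background reference in all pools, and Cd3d in all but the 129 female pool (7.26), so their directions are uncertain. The adhesion receptor Cd2 differed by 0.69, while Cd28 differed by -0.86 and Cd8b1 by -0.43. Cd2, Cd28 and Cd8b1 were above the background reference in every pool. Of the 13 genes, 5 lay below background in every pool. Summed, those 13 genes gave 2200 and 1857 in DBA females and males, against 2302 and 2210 in 129 females and males. In bulk RNA, fewer cells of a type and less RNA per cell cannot be told apart.

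In chromosome order, the 5 members with both DBA pools higher lay in a single stretch between Ms4a4a and Ms4a6d. The stretch also holds 2 family genes whose strains overlapped, Ms4a4b and Ms4a4d (Ms4a4d at 6.79 and 6.53 in DBA females and males, against 6.68 and 6.52 in 129 females and males). Also in the stretch are BE692007 and Gm8369, which differed by 0.78 and 0.16, with overlap between the strains. Outside it lay Ms4a8a, Ms4a7, Ms4a2 and Ms4a3. The 10 other Ms4a genes measured had a median difference of -0.07, and before adjustment 1 was higher and 2 lower (p under 0.05). Ms4a12 was not analysed here.

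Ms4a14, which lies next to Ms4a7, passed the test, in the opposite direction to Ms4a4a. It measured 7.74 and 7.60 in DBA females and males, against 8.79 and 8.65 in 129 females and males, a ratio of 0.484 (difference -1.05, SE 0.12, limma's adjusted p = 0.0427). The call was lost without any one of the DBA male, 129 female or 129 male pools (adjusted p 0.0643, 0.173 and 0.217), with sex as a block (0.102) and with all probe sets tested (0.288). Ms4a1, the B cell gene, measured 10.44 and 9.04 in DBA females and males, against 8.08 and 7.90 in 129 females and males, with a difference of 1.75 (SE 0.43) and limma's adjusted p = 0.246. Without the DBA male pool it passed at 2.45 (adjusted p = 0.00368), and without the DBA female pool the difference was 1.05 (0.0649). Ms4a5 was below background throughout, with a difference of -0.43 (adjusted p = 0.310). The other 7 differed by -0.19 to 0.06. Of the other genes inside the cluster, AW112010 (named here after its values were seen) differed by 1.30 (SE 0.44, adjusted p = 0.357). Of 20 genes flanking the cluster none passed the test, and before adjustment 1 was higher and 3 lower (p under 0.05), with a median of -0.07.

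**Figure D2:**
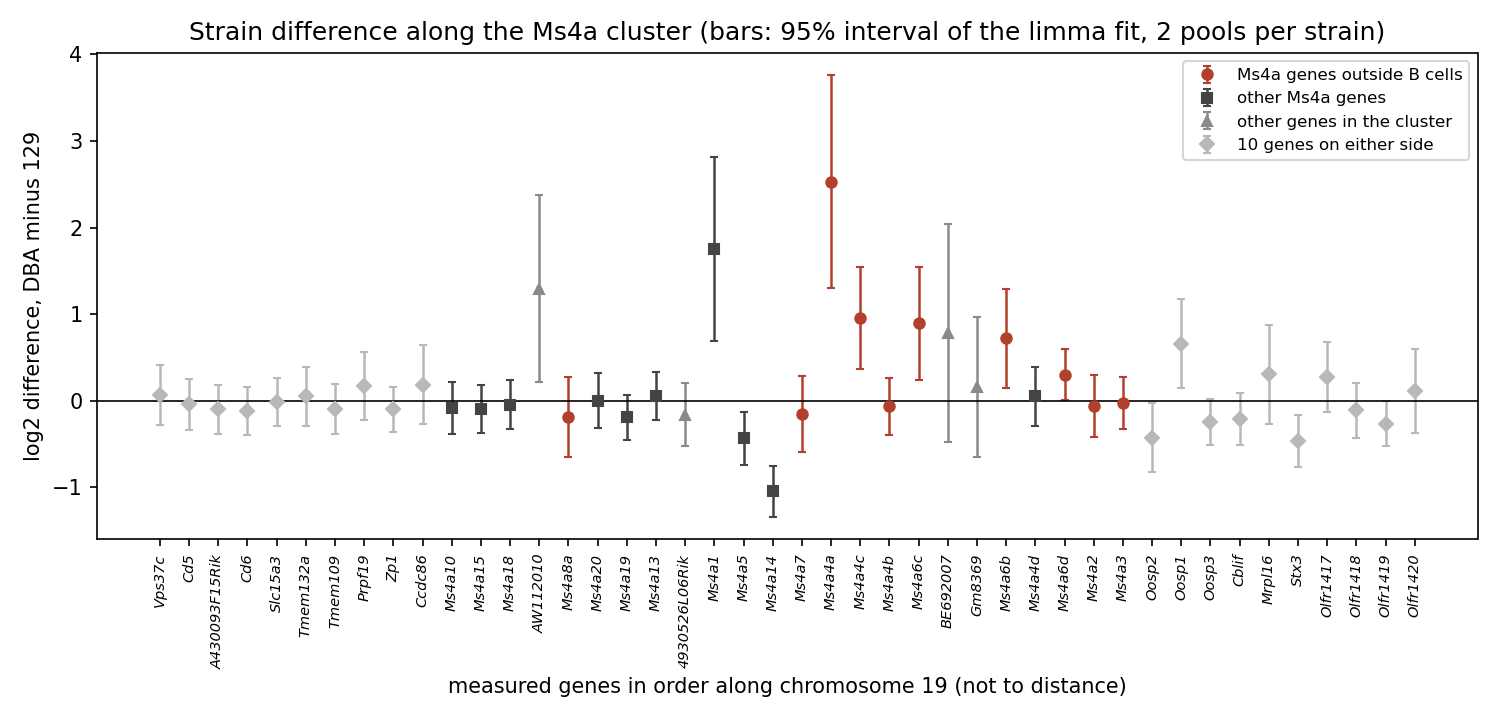
Log2 difference, DBA minus 129 (y axis), of each measured gene in and beside the Ms4a cluster in order along chromosome 19 (x axis, not to distance); points are limma estimates from 2 pools per strain and bars their 95% intervals. Ms4a4a stands highest at 2.53, higher values run from there to Ms4a6d with Ms4a4b and Ms4a4d near 0 between them, and Ms4a14 lies lowest at -1.05. The stretch also holds BE692007 (0.78) and Gm8369 (0.16), whose strains overlapped.

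The strain difference was also read within each sex, where it is 1 pool against 1 with no replicate. Ms4a4a differed by 3.08 in females and 1.98 in males, or 8.47-fold and 3.93-fold. Ms4a4c differed by 0.61 in females and 1.30 in males, Ms4a6b by 0.81 and 0.63, and Ms4a6d by 0.20 and 0.40. Members whose strains separate must have the same sign in both sexes, so this adds only the sizes. The other 5 had opposite signs. Whether the strain effect differs between the sexes could not be tested, since that model leaves no residual degree of freedom.

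**Figure D3:**
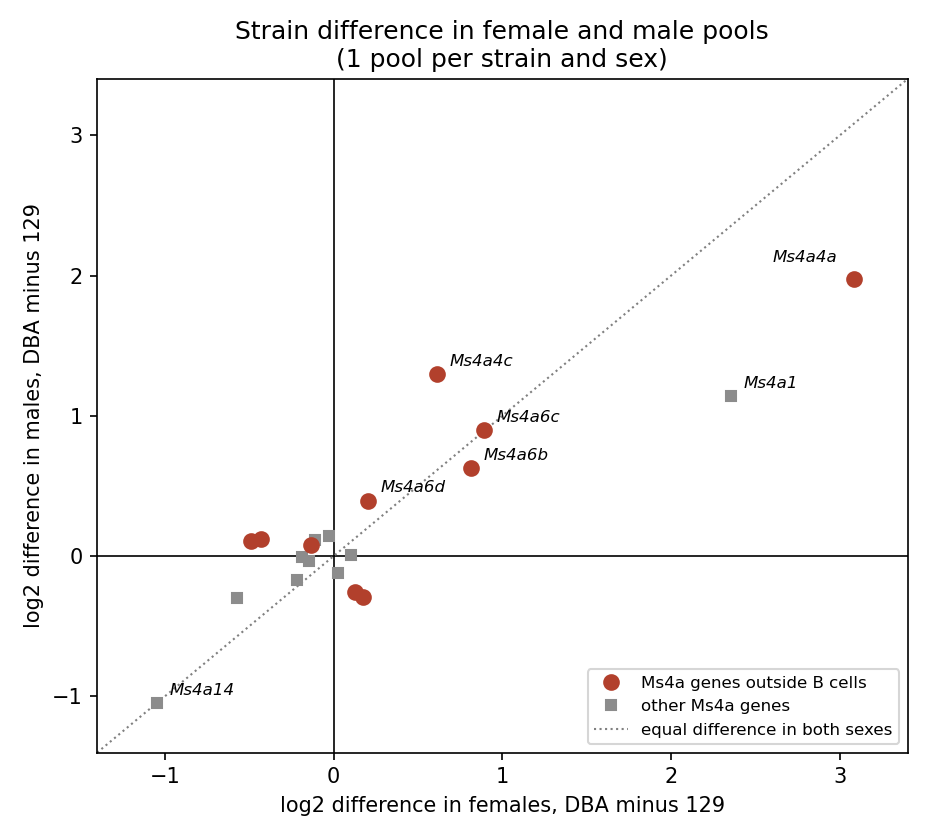
Log2 difference, DBA minus 129, in female pools (x axis) against male pools (y axis), 1 pool per strain and sex. Circles show the 10 chosen Ms4a members, squares the other Ms4a genes, and a dotted line where both sexes are equal. Ms4a4a lies at 3.08 and 1.98, below the line, Ms4a4c at 0.61 and 1.30, above it, and Ms4a6c at 0.89 and 0.90, on it.

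Between the sexes, with strain in the fit, no member passed (limma's adjusted p = 1 for each), where 0.018% of all genes did. At an unadjusted p under 0.05, 3 of the 10 members were higher in females (1.2% of all genes) and none lower (0.523%), and with strain left out of the fit none reached that level. With strain in the fit these were Ms4a4a at 1.02 (SE 0.28), Ms4a6c at 0.58 (SE 0.14) and Ms4a6b at 0.49 (SE 0.15), each female minus male. For Ms4a4a the female pool stood 1.58 above the male pool in DBA and 0.47 above it in 129. This fit has 1 residual degree of freedom.

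Markers of other cells ran in the same order over the pools as some members. The order DBA female, DBA male, 129 female, 129 male, high to low, was shown by Ms4a4a, Ms4a4c, Ms4a6c and Ms4a6b, and by 5.58% of all genes. This order was singled out after the values were seen. It was shown by 9 of 12 B cell markers, 10 of 16 monocyte and macrophage markers, 4 of 11 neutrophil markers, 3 of 13 T and NK cell markers and none of the mast cell, precursor and dendritic cell lists. For the B cell markers the summed linear signal was 9730 and 4496 in DBA females and males, against 4951 and 4326 in 129 females and males. Cd79a, a signalling chain of the B cell antigen receptor, differed by 1.25, while Cd22, another B cell receptor, ran the other way at -1.84. Cd22 had the highest value of the list in both 129 pools (11.03 in females and 10.88 in males), so it weighs heavily in their sums. Both DBA pools lay above both 129 pools in 10 of the 12 markers and below them in 1, against 23% and 21.4% of all genes. No B cell marker passed the test, though before adjustment 9 were higher and 1 lower (p under 0.05). The part of these cells in the members' values was not tested.

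Of 16 monocyte and macrophage markers none passed. Before adjustment 7 were higher and 2 lower (p under 0.05), against 6.44% and 5.08% of all genes. Both DBA pools lay above both 129 pools in 13 and below them in 3, against 23% and 21.4% of all genes. The median difference was 0.34. Ly6c2, a marker of inflammatory monocytes with a near-identical neighbour, measured 11.22 and 11.34 in DBA females and males, against 9.19 and 7.09 in 129 females and males. Ccr2, their chemokine receptor, differed by 0.92, and among genes of resident peritoneal macrophages Gata6 differed by -0.50, Timd4 by 0.56 and Icam2 by 0.35. The list's summed linear signal was 68464 and 64395 in DBA females and males, against 58511 and 55343 in 129 females and males. The lower DBA pool thus exceeded the higher 129 pool, but the brightest genes, such as Lyz2 and Cd68, weigh most in these sums. Among 11 neutrophil markers 4 were higher before adjustment (p under 0.05), with summed signals of 10005 and 7311 in DBA females and males, against 6590 and 5732 in 129 females and males. Their median difference was -0.01, 5 of the 11 were above 0, and 6 lay below background in every pool. Csf3r, the receptor for granulocyte colony-stimulating factor, differed by 0.45, S100a8 by 0.74 and Mmp8 by 0.84, all above the background reference. Ly6g, at 0.36, and S100a9, a calcium-binding protein of neutrophils, at -0.17, were below that reference in every pool. Among 9 dendritic cell markers Itgax, which encodes CD11c and which macrophages also carry, passed as lower in DBA, at 10.93 and 10.91 in DBA females and males, against 12.64 and 12.64 in 129 females and males (difference -1.72, limma's adjusted p = 0.0100). That call was lost without the 129 female (0.0594) or 129 male pool (0.0807) and with all probe sets tested (0.157). How far the make-up of the pools bears on Ms4a4a, Ms4a4c or the Ms4a6 genes was not tested.

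**Figure D4:**
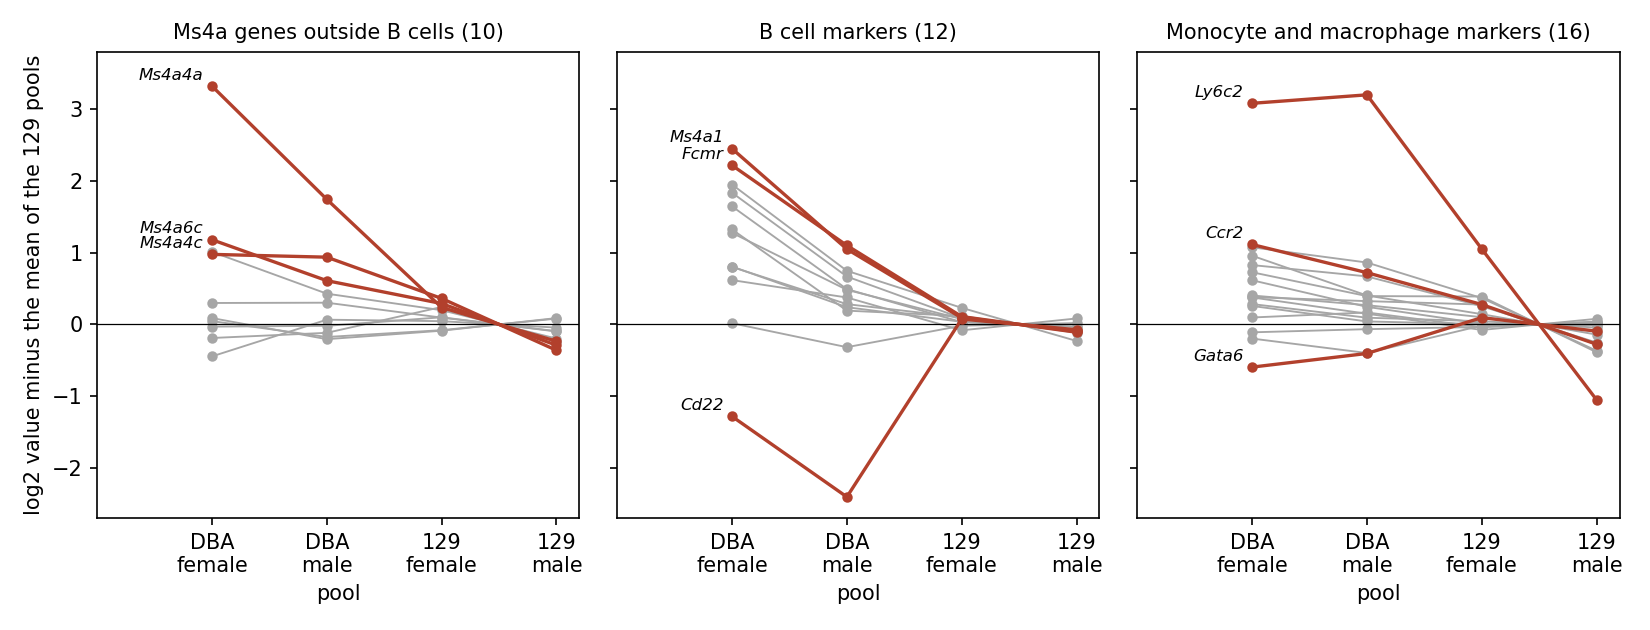
Log2 value minus the mean of the 129 pools (y axis) in each of the 4 pools (x axis), with 1 line per gene for the 10 Ms4a genes, 12 B cell markers and 16 monocyte and macrophage markers; named genes are in red. Ms4a4a and most B cell markers are highest in the DBA female pool, Ly6c2 is high in both DBA pools, and Cd22 and Gata6 are lower in both DBA pools.

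Of 5 receptors reported to associate with MS4A proteins none passed the test, and the median difference was 0.03. Clec7a, which encodes dectin-1, differed by 0.17 (SE 0.11), and Trem2, a lipid receptor of macrophages, by 0.10 (SE 0.10). Tnfrsf18, which encodes GITR, differed by -0.23 (SE 0.12). Vsig4, the complement receptor named beside Ms4a6d, had the largest difference of the 5, at 11.25 and 11.37 in DBA females and males, against 11.99 and 11.78 in 129 females and males (difference -0.58, SE 0.13, limma's adjusted p = 0.203). It was the only one of the 5 with an unadjusted p under 0.05. The related Tmem176b, a membrane gene of myeloid cells on another chromosome, differed by 0.65 (SE 0.32, adjusted p = 0.501), and its strains overlapped. Within sexes it differed by 0.65 in females and 0.65 in males, and the female pool stood 0.73 above the male pool in each strain.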

How the data were processed

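The authors deposited a table of log2 values for 41345 probe sets on 4 arrays, produced with Affymetrix Expression Console. For its version, summarisation, background correction and normalization, the sources used here give nothing. Values (log2) were used as deposited and ran between 1.71 and 14.2. Probe sets were named through GEO's platform annotation: 23521 had 1 gene symbol, 1820 had several and 16004 had none. Of the first, 23328 matched a current RefSeq gene by gene ID. Probe sets with 1 symbol were kept, and for 1082 genes with several the one with the highest mean over all arrays was used, giving 22180 genes. Strain was fitted alone (DBA minus 129) with limma 3.58.1 in R 4.3.3, lmFit and eBayes, with 2 residual and 3.73 prior degrees of freedom, two-sided, and p-values were adjusted by Benjamini-Hochberg over all genes. Sex was fitted with strain as a covariate. The script was tested on simulated data. Alternatives were a block for sex, a robust prior with a trend, quantile or median normalization, removal of dim genes, other handling of probe sets, and leaving out each pool.

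Lists were described by counts and medians, without set tests. The members and lists were chosen with earlier results of these data known. Named genes were all members, all other measured Ms4a genes, Fcer1a and Fcer1g, and from each list those past the test and up to 4 with the smallest unadjusted p. Cpa3, Cd3d, Cd3e, Mpo, Elane, Cd79a, Csf1r, Adgre1, Lyz2, Gata6, Timd4, Icam2, S100a9, AW112010, BE692007 and Gm8369 were named beyond that rule, after values were seen. Upstream sequences were globally aligned in pairs with Biopython 1.88. No 2 arrays held identical values.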

Additional observations from a re-analysis of the deposited data

Results flagged for a closer look

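For 5 Ms4a genes the strain difference (DBA minus 129) had opposite signs in females and males; each is 1 pool against 1, and the difference between the sexes was not tested, because no residual degree of freedom is left. Ms4a8a differed by -0.49 in females and 0.11 in males, a gap of -0.60 (females minus males). Ms4a7 differed by -0.43 in females and 0.13 in males, a gap of -0.56. For Ms4a4b, below background in every pool, the values were 0.13 in females and -0.26 in males, a gap of 0.38. Ms4a2, also below background, had 0.18 in females and -0.29 in males, a gap of 0.47. Ms4a3, below background as well, had -0.13 in females and 0.08 in males, a gap of -0.21.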

How the results depend on the processing

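The members' difference between DBA and 129 was recomputed under 11 alternatives. Of 106 member values 95 kept their direction, and 2, both of Ms4a4a, passed the threshold. The count of members past the test was 0 in every alternative with all pools and 0 to 1 when 1 pool was left out. Ms4a4a, Ms4a4c, Ms4a6c, Ms4a6b and Ms4a6d kept their direction in each alternative that held them, and removal of dim genes took out Ms4a4c, Ms4a4b, Ms4a2 and Ms4a3, leaving 6 members with a median of 0.51 against 0.14 over all 10. Signs turned with quantile normalization for Ms4a4b (0.007), Ms4a2 (0.025) and Ms4a3 (0.062), and with a common median for Ms4a3 (0.005). With 1 pool left out, values ranged from -0.445 to 0.066 for Ms4a8a, -0.396 to 0.090 for Ms4a7, -0.175 to 0.046 for Ms4a4b, -0.206 to 0.088 for Ms4a2 and -0.125 to 0.073 for Ms4a3. Over all genes the fit called 83, against 47 with sex as a block, 129 with a trended and robust prior, 0 with all probe sets tested (3471 at an unadjusted p under 0.05) and 6 to 186 with 1 pool left out, the fewest without the 129 male pool and the most without the DBA male pool; the cause was not tested. Between the sexes no member passed with or without strain in the fit. The labels carry no replicate number, so pools could be paired only by sex, as in the fit with sex as a block. Among members with separated strains, limma's adjusted p fell in that fit for Ms4a4a (0.0593), Ms4a6c (0.155) and Ms4a6b (0.256). It rose for Ms4a4c (0.283) and Ms4a6d (0.718). Signal near background limits Ms4a4b, Ms4a4c, Ms4a6b, Ms4a2 and Ms4a3, and 2 pools per strain limit every test.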
